A study of Mus musculus with 4 samples.

Results

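Voltage-gated sodium, calcium and potassium channel genes were described here in the embryonic mouse neuroretina, the layer of the eye cup that forms the neural retina. Members were the genes whose symbol named a pore-forming subunit of the Scn, Cacna1, Kcna, Kcnb, Kcnc, Kcnd, Kcnh or Kcnq family, which gave 43 genes of 20252 measured. There were 4 arrays of total RNA from CD-1 embryos at embryonic day 13.5. A pair of arrays came from retinas labelled Chx10-Cre;Lhx2 lox/lox (called labelled knockout here), and a pair from retinas labelled Lhx2 lox/lox (control). Both groups carry loxP-flanked Lhx2 alleles, and the Cre transgene is present in the labelled knockout alone, so its own effect and that of Lhx2 loss cannot be told apart. The Chx10 promoter is active in retinal progenitors, and recombination by this transgene is known to be mosaic. The labels do not say whether replicates were separate animals, litters or pools, so a p-value measures only the spread between these arrays.

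Voltage-gated channels open when the membrane depolarises. Sodium channels (Scn) carry the upstroke of the action potential, potassium channels (Kcn) repolarise the membrane and set its resting excitability, and calcium channels (Cacna1) turn depolarisation into calcium entry that drives transmitter release, gene expression and, in young neurons, spontaneous activity. In the retina at this age most cells are dividing progenitors, and the first neurons to differentiate, ganglion cells above all, are the known site of early sodium and calcium currents.

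Signals are log2 values per transcript cluster (a set of probes along a transcribed region), with each array centred on the median of the genes measured. On this scale the median difference between labelled knockout and control over all 20252 genes was -0.14. Differences below are to be read against it, though it varied with signal level. Over genes above the median level it was -0.11. Medians of olfactory receptor genes, whose signals were low, were 2.68 and 2.89 in labelled knockout replicates 1 and 2. In control replicates 1 and 2 they were 2.93 and 3.06. A background reference was taken from olfactory receptor genes, as the 95th percentile of their signals, which was 3.43 and 3.71 in labelled knockout replicates 1 and 2, and 3.74 and 3.96 in control replicates 1 and 2. Of the 43 channel genes, 20 (46.5%) lay above it on all 4 arrays, against 54.6% of all genes. A further 13 (30.2%, against 33.7% of all genes) lay below it on all 4 arrays, and 10 lay above it on some. Those below on all arrays were Cacna1f, Cacna1s, Scn7a, Scn10a, Scn11a, Kcna4, Kcna7, Kcna10, Kcnc4, Kcnd2, Kcnh3, Kcnh7 and Kcnq1, which include the skeletal muscle calcium channel (Cacna1s) and channels of pain-sensing neurons (Scn10a and Scn11a). Signals of different genes come from different probes and are not ranked against each other.

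The targeted gene was no check of the labels. Lhx2 (transcript cluster 6876532) gave 6.53 and 6.27 in the labelled knockout arrays and 6.62 and 6.31 in the control arrays, a difference of -0.06 (SE 0.23, limma adjusted p = 0.918), and the labels do not say which exons its probes cover. All 8 measured markers of retinal progenitors lay above the background reference on all 4 arrays, with a mean signal of 6.59 and 6.60 in the labelled knockout arrays and 8.47 and 8.42 in the control arrays. Markers of other cell types also differed between arrays. Mean signals of 8 periocular mesenchyme markers were 7.56 and 5.42 in labelled knockout replicates 1 and 2 and 4.43 and 4.49 in the controls, and those of 8 skeletal muscle markers were 5.65 and 3.97 against 3.83 and 3.91. Those of 6 pigment epithelium markers were 6.57 and 5.50 against 4.25 and 5.18. For 8 hypothalamic and forebrain neuron markers they were 6.98 and 7.96 in the labelled knockout arrays and 4.13 and 4.0 in the controls (7 of the 8 rose), and for 12 markers of ganglion cells and young neurons 7.65 and 8.41 against 8.13 and 8.17. Fewer cells of a type and less RNA per cell cannot be told apart in such samples. The part these cell types play in the channel results was not tested.

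The comparison of labelled knockout with control retinas asked which channel genes differed with the labelled genotype. Cacna1d was the 1 channel gene of 43 that passed an adjusted p of 0.05 in limma, and it fell, where 0.583% of all genes passed in either direction, 0.326% as lower and 0.257% as higher. At an adjusted p of 0.10 the count was 4, with Cacna1e and Kcnq3 higher and Kcna5 lower beside Cacna1d, where 1.73% of all genes passed, 0.716% as higher and 1.01% as lower. The values of the channel genes on each array are shown by family.

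**Figure D1:**
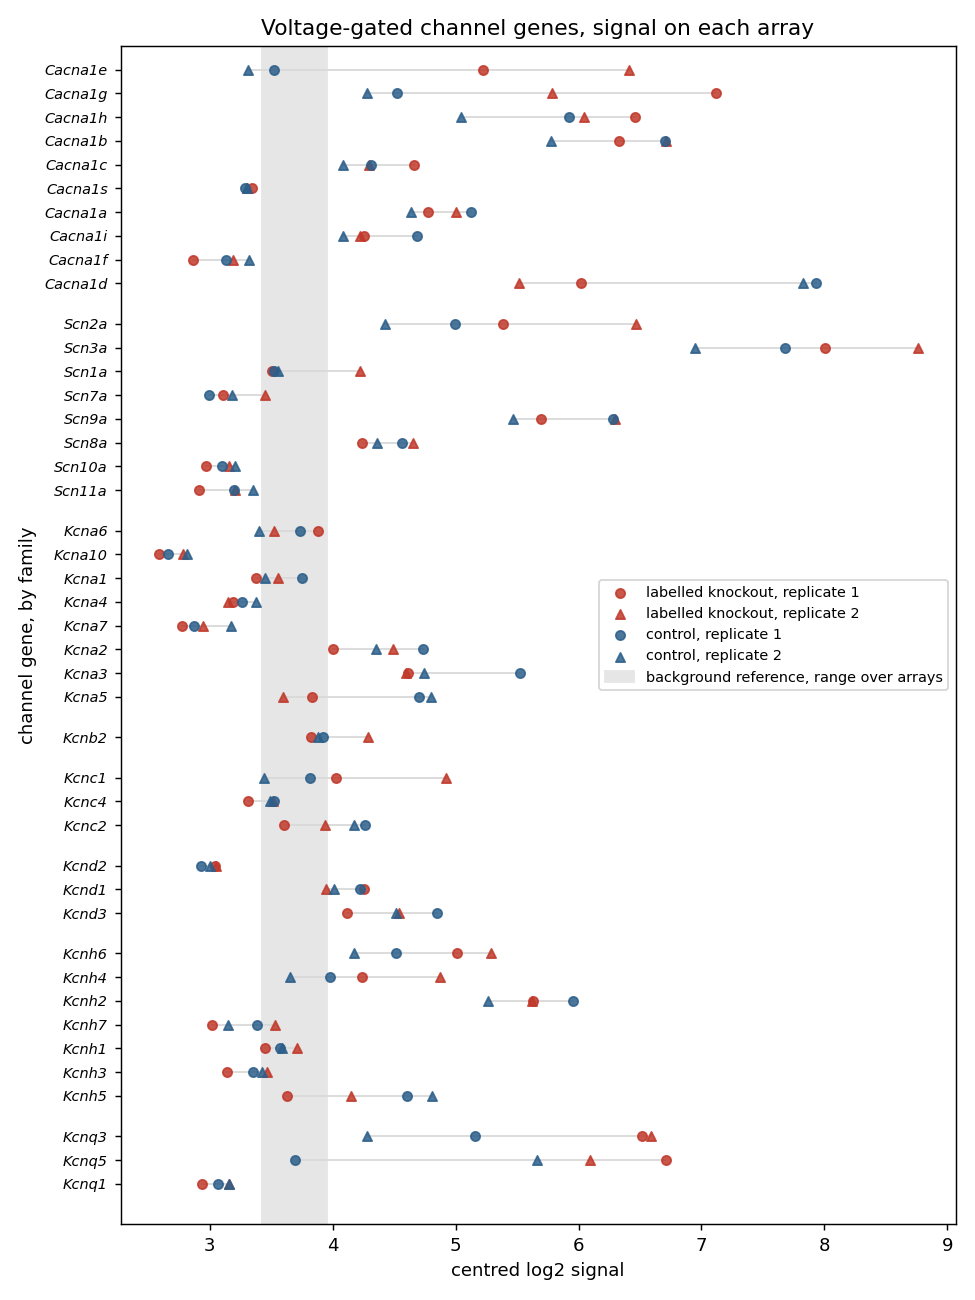
Centred log2 signal (horizontal axis) of each of the 43 channel genes (rows, grouped by family and ordered by difference) on the 4 arrays; labelled knockout in red, control in blue, circles for replicate 1 and triangles for replicate 2, and a grey band for the range of the background reference, 3.43 to 3.96. Cacna1d sits between 5.52 and 6.02 in the labelled knockout and between 7.83 and 7.94 in the control, while Cacna1e runs the other way.

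Groups were also compared by overlap, which needs no model. On the centred values 12 channel genes had both labelled knockout arrays above both control arrays (27.9%, against 10.1% of all genes), and 6 had both below (14.0%, against 35.1% of all genes). The higher set includes Cacna1s and Kcnd2, which lay below background on all 4 arrays. With a difference of at least 1 log2 unit as well, 6 genes were higher (14.0%, against 1.95% of all genes) and 2 lower (4.65%, against 1.96%). Within both replicate numbers the difference was above 0 for 15 of the 43 channel genes, and for 3133 of all 20252 genes (15.5%). It was below 0 for 11 of the 43, and for 11361 of all 20252 genes (56.1%). The shares without overlap moved with the scale: after quantile normalization 41.9% of channel genes were higher and 11.6% lower without overlap, beside 19.0% and 23.2% of all genes. With each array centred on all transcript clusters they were 46.5% and 9.3%, beside 23.3% and 15.8% of all genes, and on the values as deposited 27.9% and 6.98%, beside 9.63% and 10.2%. On each of these 4 scales, 10 channel genes were higher in the labelled knockout without overlap (23.3%, against 6.3% of all genes). They were Cacna1e, Cacna1g, Cacna1h, Scn2a, Scn3a, Kcnc1, Kcnh4, Kcnh6, Kcnq3 and Kcnq5. The Kcnh6 cluster may not measure that gene, as described below. The 2 that were lower on each scale (4.65%, against 5.15% of all genes) were Cacna1d and Kcna5.

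**Figure D2:**
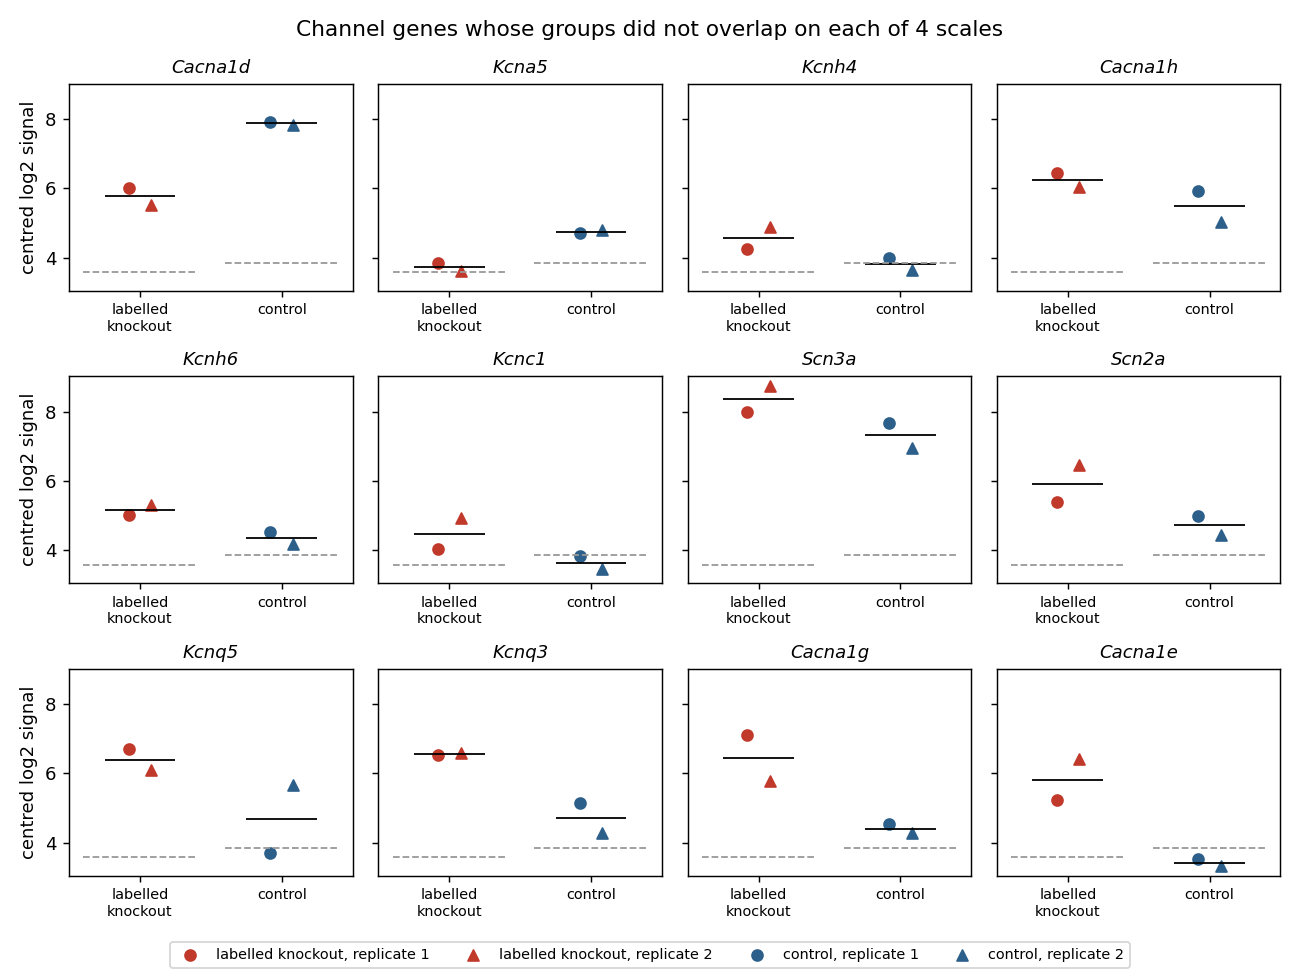
Centred log2 signal of the 12 channel genes whose groups did not overlap on each of 4 scales, with labelled knockout arrays on the left and control arrays on the right of each panel; circles are replicate 1, triangles replicate 2, black lines group means and dashed grey lines the mean background reference of the group. Both Cacna1e control signals, 3.52 and 3.31, lie under the background reference, and the Kcnq5 control arrays stand apart from each other at 3.70 and 5.67. Whether the Kcnh6 cluster measures that gene was not tested.

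Among calcium channels, Cacna1d encodes an L-type pore that opens at relatively negative voltages and is used by neurons, hair cells and retinal cells. Its signal (transcript cluster 6823659, chromosome 14) was 6.02 and 5.52 in labelled knockout replicates 1 and 2, against 7.94 and 7.83 in the control replicates. Both labelled knockout arrays lay well below both control arrays, and all 4 lay above background. Cacna1d fell 4.32-fold, a log2 difference of -2.11 (SE 0.25, 95% interval -2.70 to -1.52, limma adjusted p = 0.0285), with -1.92 within replicate 1 and -2.31 within replicate 2. Its difference was between -2.36 and -1.86 in every setting tried. The call was lost after quantile normalization (adjusted p = 0.103) and with centring on all transcript clusters (adjusted p = 0.176). It was also lost with the replicate number as a block (adjusted p = 0.0516) and with either filter on dim genes (adjusted p = 0.0566 and 0.0649). Over the alternatives with all 4 arrays the adjusted p ranged between 1.8e-06 (values as deposited) and 0.176. Of all genes, 35.1% lay below both controls and 0.326% fell. Retinal progenitor markers were lower on the same arrays, with 8 of 8 below both controls and a median difference of -1.17. So were photoreceptor precursor markers, with 4 of 5 below both controls, 2 of them fallen, a median difference of -0.998 and mean signals of 4.55 and 4.73 in labelled knockout arrays against 5.96 and 5.91 in controls. The part of either cell type in the Cacna1d difference was not tested.

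The other L-type genes did not pass the test. Cacna1c, the L-type pore of heart, smooth muscle and many neurons, had 4.66 and 4.29 in labelled knockout arrays and 4.31 and 4.08 in control arrays, a difference of 0.28 (95% interval -0.26 to 0.81) with overlapping groups. Cacna1f, the L-type channel of photoreceptor synapses, and Cacna1s, that of skeletal muscle, were below background on every array, with differences of -0.19 and 0.03. Cacna1s had 3.35 and 3.31 in labelled knockout arrays and 3.28 and 3.30 in controls.

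Cacna1e, the pore of the R-type calcium current of neurons, was the calcium channel gene with an adjusted p nearest to the threshold after Cacna1d. It had 5.22 and 6.41 in the labelled knockout arrays and 3.52 and 3.31 in the control arrays. Because both control signals were not told from background, the signal is given as at least 3.92-fold higher (log2 difference of the signals 2.40, SE 0.38, limma adjusted p = 0.0647). The difference was 1.70 within replicate 1 and 3.10 within replicate 2. Its other transcript clusters, 6763194 and 6763196, differed by 2.03 and 0.86 in the same direction, and with the mean of the 3 clusters Cacna1e passed (difference 1.77, adjusted p = 0.0437). Over the fits that left out 1 array the Cacna1e difference lay between 1.81 and 2.99. With all 4 arrays its adjusted p lay between 2.76e-06 (values as deposited) and 0.176 over the alternatives.

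T-type channels open near the resting potential and shape bursts and pacemaking. Cacna1g had 7.12 and 5.79 in labelled knockout replicates 1 and 2 and 4.52 and 4.28 in the controls, 4.15-fold higher with a difference of 2.05 (SE 0.42, limma adjusted p = 0.109). The array with the highest Cacna1g signal, labelled knockout replicate 1, is the one with the highest mesenchyme and muscle signals. Labelled knockout replicate 2 also had a mesenchyme mean above both controls (5.42 against 4.43 and 4.49). Without labelled knockout replicate 1 the Cacna1g difference was 1.39. The part of these tissues in it was not tested. Over the fits that left out 1 array the Cacna1g difference lay between 1.39 and 2.72. With all 4 arrays its adjusted p lay between 5.27e-06 (values as deposited) and 0.306 over the alternatives. Cacna1h was also above both controls, at 6.46 and 6.04 against 5.92 and 5.04 (difference 0.77, 95% interval -0.03 to 1.57, adjusted p = 0.458). Its difference was 1.21 without control replicate 1 and 0.33 without control replicate 2. Over the alternatives with all 4 arrays its adjusted p lay between 0.143 and 0.601. Cacna1i, the third T-type gene, had 4.26 and 4.22 in the labelled knockout arrays and 4.68 and 4.08 in the controls, with overlapping groups.

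The channels that trigger transmitter release at most synapses showed no call. Cacna1b, the N-type pore, had 6.33 and 6.71 in labelled knockout arrays and 6.71 and 5.78 in control arrays (difference 0.28, 95% interval -0.54 to 1.10). Cacna1a, the P/Q-type pore, had 4.77 and 5.0 against 5.12 and 4.63 (difference 0.01, 95% interval -0.58 to 0.59). Both differed downward within replicate 1, by -0.38 and -0.35, and upward within replicate 2, by 0.93 and 0.36.

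Promoter sequences of the channel genes are shown from the RefSeq promoter table (GRCm38.p6) for 3 of the 4 genes with an adjusted p under 0.10, Cacna1d, Cacna1e and Kcna5 (Kcnq3, the other one, is not shown here), and for the Kcnq5 start that holds 1 of the motifs searched for. Each is the 250 bases before an annotated start, 5′ to 3′. Capitals mark CAATTA, read here on the other strand as TAATTG, or CAGCTG. Motifs were chosen after values were seen.
Cacna1d outer start, chr14:30491157-30491406 (- strand): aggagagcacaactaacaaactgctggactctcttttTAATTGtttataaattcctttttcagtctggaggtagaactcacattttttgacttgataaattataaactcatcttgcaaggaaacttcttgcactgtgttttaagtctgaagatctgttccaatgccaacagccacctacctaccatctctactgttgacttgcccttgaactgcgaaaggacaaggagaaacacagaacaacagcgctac
Cacna1d inner start, chr14:30353487-30353736 (- strand): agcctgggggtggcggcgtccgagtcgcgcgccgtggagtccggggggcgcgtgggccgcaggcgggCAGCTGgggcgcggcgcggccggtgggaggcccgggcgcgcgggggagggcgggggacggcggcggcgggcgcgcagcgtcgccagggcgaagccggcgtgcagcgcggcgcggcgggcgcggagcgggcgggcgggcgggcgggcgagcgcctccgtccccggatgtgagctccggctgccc
Cacna1e start, chr1:154725921-154726170 (- strand): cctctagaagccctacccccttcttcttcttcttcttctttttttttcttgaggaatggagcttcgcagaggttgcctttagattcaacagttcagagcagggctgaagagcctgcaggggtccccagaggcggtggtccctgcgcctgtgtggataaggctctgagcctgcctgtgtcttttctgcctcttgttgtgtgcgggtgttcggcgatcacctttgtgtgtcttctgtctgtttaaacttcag
Kcna5 start, chr6:126535556-126535805 (- strand): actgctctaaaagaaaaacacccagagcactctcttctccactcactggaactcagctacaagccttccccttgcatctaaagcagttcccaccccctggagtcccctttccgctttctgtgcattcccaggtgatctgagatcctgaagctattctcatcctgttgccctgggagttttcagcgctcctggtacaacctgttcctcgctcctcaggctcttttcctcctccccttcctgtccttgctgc
Kcnq5 outer start, chr1:21962651-21962900 (- strand): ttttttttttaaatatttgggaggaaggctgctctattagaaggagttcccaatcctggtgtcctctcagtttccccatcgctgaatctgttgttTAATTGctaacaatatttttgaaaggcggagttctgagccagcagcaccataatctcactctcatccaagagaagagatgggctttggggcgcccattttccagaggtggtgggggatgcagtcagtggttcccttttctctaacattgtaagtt

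Of the 43 channel genes, 33 had at least 1 promoter in the table, 42 windows in all, some of which overlap. TAATTA, the core letters bound by many LIM-homeodomain factors, was in 0 of the 42 windows on either strand, against 4.84% of the 32851 windows in the table. CAATTA was in 2 windows, those shown for Cacna1d (beginning 213 bases before the start) and Kcnq5 (beginning 155 bases before the start), against 7.17% of all windows. CAGCTG, an E-box of the kind bound by basic helix-loop-helix factors, was in 11 windows, 1 of them the inner start of Cacna1d (beginning 183 bases before it), against 13.0% of all windows. Of these 2 genes Cacna1d fell, while Kcnq5, which did not pass the test, lay above the controls. The starts of Cacna1d differ in composition, with G or C at 39.6% of the outer and 86.4% of the inner window, and the transcript cluster does not tell them apart.

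Sodium channel genes were led by Scn2a and Scn3a, which encode channels of central neurons, Scn3a being the one most used before birth. Scn2a had 5.38 and 6.46 in labelled knockout replicates 1 and 2, against 5.0 and 4.43 in the controls. Scn3a had 8.01 and 8.76 against 7.68 and 6.95. For both genes the labelled knockout arrays were above the controls, narrowly in replicate 1 and clearly in replicate 2. The Scn2a difference was 1.21 (SE 0.39, limma adjusted p = 0.289), with 0.39 within replicate 1 and 2.04 within replicate 2. The Scn3a difference was 1.07 (SE 0.36, limma adjusted p = 0.315), with 0.33 and 1.81. Without labelled knockout replicate 2 they were 0.67 and 0.69, and without labelled knockout replicate 1 they were 1.75 and 1.44. Without control replicate 1 they were 1.5 and 1.43, and without control replicate 2 they were 0.93 and 0.70. Over the alternatives with all 4 arrays the adjusted p lay between 0.0454 (values as deposited) and 0.386 for Scn2a. For Scn3a it lay between 0.0848 and 0.404, and the mean over its 4 clusters differed by 0.62.

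These 2 genes are neighbours. On chromosome 2, in RefSeq's order, Scn3a is followed by Scn2a, Scn1a, Scn9a and Scn7a, and their differences in that order were 1.07, 1.21, 0.32, 0.12 and 0.19. Scn9a, a channel of sensory and sympathetic neurons, was above background on all arrays at 5.70 and 6.30 in the labelled knockout and 6.28 and 5.47 in the control. Its difference was -0.58 within replicate 1 and 0.83 within replicate 2. Scn8a, the main channel of mature axon initial segments, had 4.24 and 4.65 in labelled knockout arrays and 4.57 and 4.36 in controls, a difference of -0.02 (95% interval -0.57 to 0.53). All 8 sodium channel genes had a higher difference within replicate 2 than within replicate 1, as 61.5% of all genes did. Among them Scn7a, Scn10a and Scn11a lay below background on every array.

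Potassium channels of the KCNQ family carry the M-current, which damps repetitive firing, and 2 of the 3 measured stood above both controls, as 10.1% of all genes did. Kcnq3 had 6.52 and 6.59 in labelled knockout arrays, against 5.15 and 4.28 in controls. The labelled knockout arrays lay close together and above both controls, 3.58-fold higher with a log2 difference of 1.84 (SE 0.31, 95% interval 1.09 to 2.59, limma adjusted p = 0.0759). It was 1.36 within replicate 1 and 2.31 within replicate 2. It passed in each fit that left out 1 array, and its adjusted p lay between 8.73e-08 and 0.204 over the alternatives.

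Kcnq5 had 6.71 and 6.09 in labelled knockout replicates 1 and 2, against 3.70 and 5.67 in control replicates 1 and 2. The difference was 1.72 (SE 0.60, limma adjusted p = 0.336), with 3.02 within replicate 1, where the control signal lay under the background reference, and 0.43 within replicate 2. It was 0.74 without control replicate 1 and 2.71 without control replicate 2. With the mean of its 4 clusters it was 0.96. Over the alternatives with all 4 arrays the adjusted p of Kcnq5 lay between 0.000249 (values as deposited) and 0.529. A second Kcnq5 transcript cluster, 6757327, was also lower in control replicate 1, at 4.50 beside 5.58 in control replicate 2. The mean of 6 pigment epithelium markers was likewise lowest in control replicate 1, at 4.25 beside 5.18 in control replicate 2. It was highest in labelled knockout replicate 1, at 6.57 beside 5.50 in labelled knockout replicate 2. The part of this tissue in the Kcnq5 difference was not tested. Kcnq1, the channel of heart and transporting epithelia, was below background throughout (difference -0.06).

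**Figure D3:**
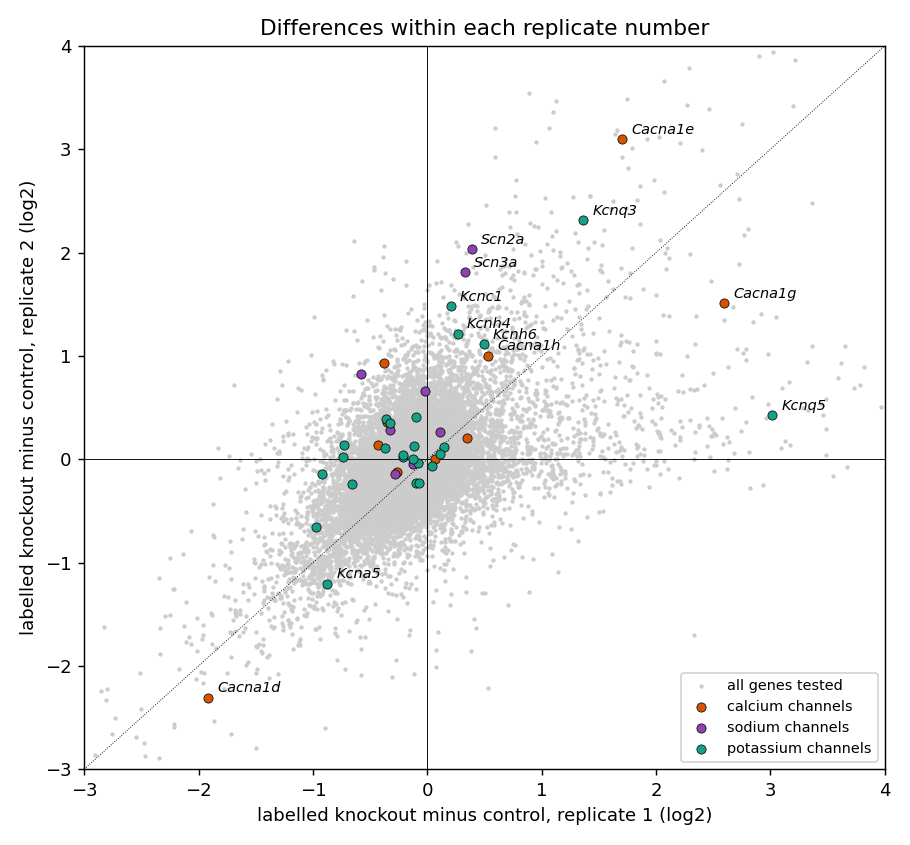
Log2 difference, labelled knockout minus control, within replicate 1 (horizontal axis) and within replicate 2 (vertical axis) for calcium, sodium and potassium channel genes (coloured) and all genes tested (grey; genes beyond the axis range are not drawn). Cacna1e, Kcnq3, Scn2a, Scn3a and Kcnc1 lie above the dotted line of equal differences, Cacna1g and Kcnq5 below it, and Cacna1d at -1.92 and -2.31 in the lower left.

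Of the Shaker-related genes (Kcna), 7 of 8 lay below 0, with a median difference of -0.16, close to the median of all genes. Kcna5, a delayed rectifier first known from heart and smooth muscle, had 3.83 and 3.60 in labelled knockout arrays, against 4.70 and 4.80 in controls. Its groups were well separated, with a difference of -1.04 (SE 0.20, limma adjusted p = 0.0963), or -0.88 and -1.20 by replicate number, and labelled knockout replicate 2 lay under the background reference. Without labelled knockout replicate 1 the Kcna5 difference was -1.16, and without labelled knockout replicate 2 it was -0.92. Over the alternatives with all 4 arrays its adjusted p lay between 0.0760 and 0.677. Kcna3, a channel of lymphocytes, microglia and neurons, had 4.61 and 4.60 against 5.53 and 4.74 (difference -0.53, adjusted p = 0.563). Kcna5 is followed on chromosome 6 by Kcna1 and Kcna6, whose differences were -0.13 and 0.14, both with at most 1 array above background. The other Kcna1 clusters differed by 0.60 and 0.69, opposite in sign to the one used. Their control signals, 2.80 and 3.10 for the former and 3.18 and 2.45 for the latter, all lay under the background reference.

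Shaw-related channels (Kcnc) allow fast repolarisation. Kcnc1 had 4.02 and 4.92 in labelled knockout arrays and 3.82 and 3.44 in controls. Its difference was 0.84 (SE 0.33, limma adjusted p = 0.395), with 0.21 within replicate 1 and 1.48 within replicate 2, where the control signal lay under the background reference, and it was 0.40 without labelled knockout replicate 2. Without labelled knockout replicate 1 it was 1.29. Over the alternatives with all 4 arrays the adjusted p of Kcnc1 lay between 0.25 and 0.831. Kcnc2, of the same family, was on the opposite side, at 3.60 and 3.93 against 4.26 and 4.17 (difference -0.45, adjusted p = 0.485). The Shal-related A-type genes Kcnd1 and Kcnd3 had differences of -0.01 and -0.36 with overlapping groups, and Kcnb2, a Shab-related delayed rectifier, had 0.16.

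In the ether-à-go-go family (Kcnh), members lay on both sides of 0, and none passed the test. Kcnh6, of the ERG subfamily, had 5.01 and 5.29 in labelled knockout arrays and 4.52 and 4.18 in controls (difference 0.80, limma adjusted p = 0.225). Its 3 other clusters differed by 0.39, -0.05 and -0.36, so the direction rests on the cluster used. The clusters used for the other members are numbered in chromosome order. The number of the Kcnh6 cluster, 6753646, lies between those for Cacna1s and Kcnh1, both on chromosome 1, while RefSeq places Kcnh6 on chromosome 11. Whether that cluster measures Kcnh6 was not tested. Kcnh4, of the ELK subfamily, had 4.24 and 4.87 against 3.97 and 3.65 (difference 0.74, adjusted p = 0.362), and its control replicate 2 also lay under the background reference. Kcnh5, of the EAG subfamily, was lower at 3.63 and 4.15 in labelled knockout arrays, against 4.60 and 4.80 in controls (difference -0.81, adjusted p = 0.252). Without labelled knockout replicate 2 its difference was -1.07, and without labelled knockout replicate 1 it was -0.55. Over the alternatives with all 4 arrays the adjusted p of Kcnh5 lay between 0.127 and 0.9999. Kcnh2, the ERG channel best known for cardiac repolarisation, had 5.63 and 5.62 against 5.96 and 5.27, a difference of 0.01 (95% interval -0.64 to 0.67).

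Differences also varied with the replicate number. Of the 10 genes higher on each scale, 8 had the larger difference within replicate 2. Over all 43 channel genes the difference was higher within replicate 2 than within replicate 1 for 32 (74.4%, against 61.5% of all genes), with medians of -0.12 within replicate 1 and 0.13 within replicate 2. Over all genes those medians were -0.18 and -0.10. Differences of neuronal marker lists ran the same way, higher within replicate 2 for 8 of 8 hypothalamic and forebrain neuron genes (medians 3.12 and 4.15 within replicates 1 and 2) and 11 of 12 ganglion cell and young neuron genes (-0.34 and 0.32). So did those of macrophage and microglia genes, higher within replicate 2 for 4 of 4 (0.44 and 0.75). Mesenchyme and muscle lists ran opposite, with 0 of 8 genes each higher within replicate 2 and medians of 3.20 and 0.91 for mesenchyme. Pigment epithelium genes did too, with 1 of 6 higher within replicate 2 and medians of 2.40 and 0.41. So did vascular (0 of 5), blood (0 of 3) and neural crest and glia genes (0 of 3). Kcnq5 and Cacna1g are the members that were larger in replicate 1 by over 1 log2 unit.

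Auxiliary subunits set how many of these pores reach the membrane and how they gate. Over 9 lists of auxiliary and related channel genes, 50 of 55 genes were measured, and 0 rose or fell in limma, while 9 had an unadjusted p under 0.05 (2316 of all 20252 genes did) and 1 an adjusted p under 0.10 (1.73% of all genes). The median difference over the 50 was 0.00, with 11 higher and 11 lower without overlap (22.0% each, against 10.1% and 35.1% of all genes).

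The alpha2delta subunits, which bring calcium channels to the surface, had a median difference of 0.68. All 4 were above 0 in both replicate numbers, as 15.5% of all genes were. The groups of Cacna2d4 overlapped, and 2 of its 4 arrays lay above background. Cacna2d3 had 6.57 and 7.06 in labelled knockout arrays and 5.56 and 5.36 in controls (difference 1.35, SE 0.25, adjusted p = 0.0881), with 1.00 within replicate 1 and 1.70 within replicate 2. It passed in the fits without control replicate 1, control replicate 2 or labelled knockout replicate 1 (adjusted p between 0.00328 and 0.162 over the alternatives). Cacna2d1 had 6.63 and 7.10 against 6.06 and 5.95 (difference 0.86). The sodium channel subunit gene Scn2b had 5.62 and 5.52 against 4.69 and 4.49, a difference of 0.98 (adjusted p = 0.112) that was nearly equal by replicate number at 0.93 and 1.03.

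**Figure D4:**
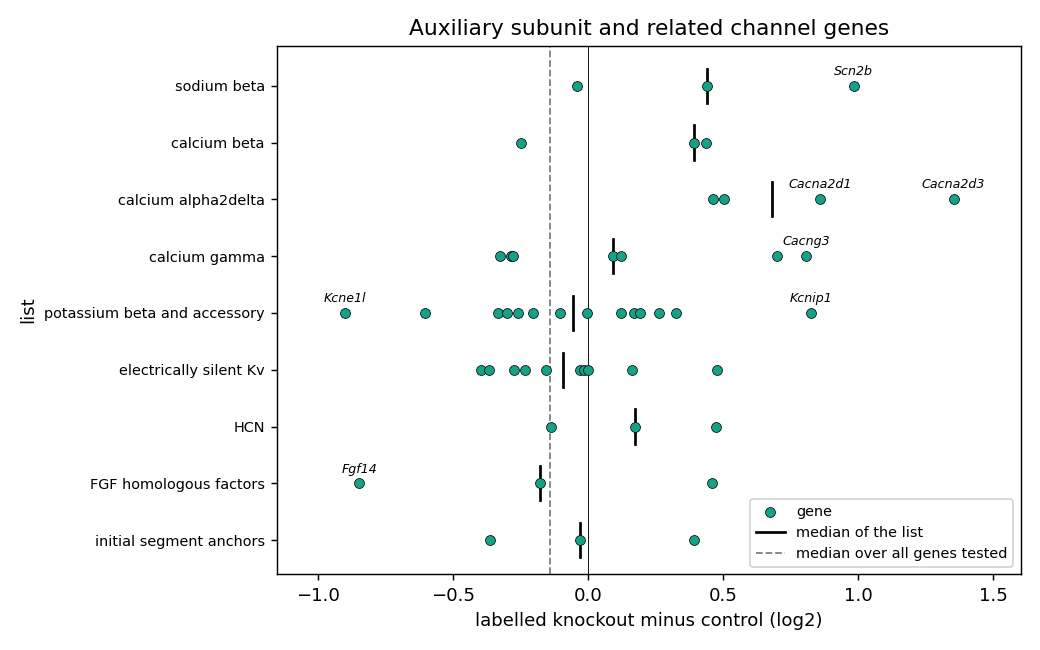
Log2 difference, labelled knockout minus control, of each measured gene (points) in 9 lists of auxiliary and related channel genes (rows); short black bars are list medians and the dashed line is the median over all genes, -0.14. The 4 alpha2delta genes all lie above 0, up to 1.35 for Cacna2d3, and Kcne1l and Fgf14 lie lowest at -0.90 and -0.85.

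Below the controls were Kcne1l, a potassium channel accessory gene, at 4.04 and 4.04 in labelled knockout arrays against 4.82 and 5.06 in controls (difference -0.90, adjusted p = 0.132), and Fgf14, an intracellular factor that binds sodium channels at the initial segment, at 5.41 and 6.12 against 6.67 and 6.55 (difference -0.85, adjusted p = 0.307). The smallest adjusted p in the other lists was 0.519 for Cacnb1 (calcium beta), 0.263 for Cacng3 (calcium gamma), 0.459 for Kcnv1 (electrically silent potassium subunits), 0.657 for Hcn3 (pacemaker channels) and 0.569 for Ank2 (initial segment anchors). Their differences were 0.44, 0.81, 0.48, 0.47 and -0.36, and without labelled knockout replicate 1 that of Cacng3 was 1.10. Over the alternatives with all 4 arrays the adjusted p of Cacng3 lay between 0.167 and 0.883.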

How the data were processed

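Total RNA of neuroretinas was labelled by a whole-transcript sense assay after ribosomal RNA reduction and hybridised to Affymetrix arrays (per the labels' protocols). The deposited values are log2 signals per transcript cluster, and the submitters' processing notes name RMA, Partek and the build mm9 but no version. Of 112205 clusters, 25513 had 1 gene symbol in the platform annotation, 2290 had several and 84402 were unnamed here. Each of 20252 genes was represented by its brightest cluster on average. All 43 members matched RefSeq gene identifiers.

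Medians of the deposited values over these genes were 4.25 and 4.63 in labelled knockout replicates 1 and 2, and 4.14 and 4.58 in control replicates 1 and 2. Each array was therefore centred on its median. An earlier report of these data had also found, by simulation, an error rate above the stated one on uncentred values. The test was limma 3.58.1 under R 4.3.3, two-sided, with genotype as the only term, an intensity trend in eBayes and Benjamini-Hochberg adjustment over all genes. "Rose" and "fell" mean an adjusted p under 0.05. With 2 arrays per group, their number limits the precision. An adjusted p is limma's throughout.

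Named genes were those that passed, the 10 largest differences in each direction among members with the same sign in both replicate numbers, the 10 of highest signal, family extremes, and from each auxiliary list the passing genes or that of smallest p. Other members and Cacna2d1 were named after values were seen, as were the 4-scale counts and the motifs. Members, lists and tests were chosen with earlier results of these data known. Alternatives covered scale, the replicate block, filters on dim genes, the variance prior, several clusters of a gene, the threshold and each array left out.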

Additional observations from a re-analysis of the deposited data

How the results depend on the processing

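Across settings the number of channel genes called moved more than their differences did. Against 118 genes and 1 channel gene, limma called 415 genes and 6 channel genes on the values as deposited. The 6 were Cacna1e, Cacna1g, Kcnq3, Kcnq5 and Scn2a beside Cacna1d. On that scale the SE of Cacna1d was larger than in the main fit, 0.35 against 0.25. Its adjusted p was nevertheless smaller, 1.8e-06 against 0.0285. With 0.10 as the threshold limma called 350 genes and 4 channel genes. Quantile normalized, it called 0 and 0 (2318 genes at an unadjusted p under 0.05), and with centring on all transcript clusters 0 and 0 (1959). Filters at the 25th percentile and the median of level gave 28 and 35 genes and 0 channel genes, the robust prior 182 genes and 1 channel gene, and the mean of all clusters 132 genes and 2 channel genes. The split of called genes, 52 higher and 66 lower, was 257 and 158 as deposited. Nothing in the labels says that the replicate number marks a shared litter or batch (same-numbered deviations correlated at 0.479 across genes), and with the replicate block 17 genes and 0 channel genes were called, at an adjusted p of 0.0516 for Cacna1d. With 1 array left out, 447 to 743 genes, 5 to 7 channel genes and 0 to 3 auxiliary genes were called. In those fits the lone array of a group is assumed to vary like the others. Auxiliary genes called were 1 as deposited and 1 at an adjusted p of 0.10. The cause was not tested. The median difference over all genes, -0.14, was -0.06 as deposited, -0.02 after quantile normalization and 0.03 with centring on all transcript clusters. There the channel median within replicate 1 was 0.11, against -0.12. Under the 4 scales the sign changed for up to 11 channel genes, none of which differed by more than 0.17. Without labelled knockout replicate 1, a count added after seeing the data, 22 channel genes were higher and 7 lower without overlap, beside 24.0% and 45.4% of all genes. Cacna1d was lower in every setting.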
